A study of Bos taurus with 11 samples.

Results

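The collagen genes on a bovine oligonucleotide array were described in endometrial biopsies taken from cows on day 7 of the oestrous cycle. Members were the non-control probes whose gene name in the scanner files had the form of a collagen chain symbol, which gave 108 probes for 34 genes among 43653 non-control probes. The 5 subfertile cows had failed to conceive at repeated consecutive transfers or inseminations, although they cycled and their genital tracts looked healthy. The 6 fertile cows had conceived within a small number of services before biopsy and again at the first embryo transfer after it. No treatment or allele separates the groups, and each cow gave 1 array of Cy3-labelled total RNA.

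Collagens are trimers of chains in which glycine recurs at a regular step, so that the chains can wind into a triple helix. Fibrillar collagens build the tensile fibres of the stroma, network collagens form the sheet of basement membranes and related lattices, fibril-associated collagens decorate fibres, and the beaded collagen VI forms microfilaments around cells. In the uterus the fibres lie mainly in the stroma, and basement membranes underlie the luminal and glandular epithelium and surround vessels and smooth muscle.

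The repeat can be read in the probes themselves. In the following 60-base probes of 5 chains, written 5′ to 3′, capitals mark the glycine codons (GGN) found at steps of 9 bases. In the COL3A1 probe 5 of 6 such positions hold a glycine codon, and the position before its last capitals reads tgt. The probes are shown because they hold the repeat of the triple helix, and probes of this kind are described as a set after the single genes.
COL1A1: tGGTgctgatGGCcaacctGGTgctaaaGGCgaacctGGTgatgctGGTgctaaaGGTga
COL1A2: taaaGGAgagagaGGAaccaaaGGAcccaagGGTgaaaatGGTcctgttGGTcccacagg
COL3A1: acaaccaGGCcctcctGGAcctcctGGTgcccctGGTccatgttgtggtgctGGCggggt
COL5A3: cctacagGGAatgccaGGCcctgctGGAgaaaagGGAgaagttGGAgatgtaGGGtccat
COL8A2: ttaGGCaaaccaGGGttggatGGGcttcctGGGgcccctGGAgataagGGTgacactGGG
In the build HGSC Btau_3.1 named in the file headers, the COL1A1 probe lies at chr19:37646195-37646474, the COL1A2 probe at chr4:12044652-12044711, the COL3A1 probe at chr2:7743600-7743659, the COL5A3 probe at chr7:13019375-13019510 and the COL8A2 probe at chr3:116934875-116934934. The COL3A1 and COL5A3 probes are on the minus strand and the other 3 on the plus strand. The COL1A1 probe spans 280 genomic bases and the COL5A3 probe 136, so both cross a gap in the genomic match.
Of the type IV chains, 3 probes share a short run of letters, in capitals, and are shown because their differences diverged.
COL4A2: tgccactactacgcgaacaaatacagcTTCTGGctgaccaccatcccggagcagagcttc
COL4A3: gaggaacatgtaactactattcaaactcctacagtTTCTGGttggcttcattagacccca
COL4A6: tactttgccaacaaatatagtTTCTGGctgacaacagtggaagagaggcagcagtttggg
They lie at chr12:83238717-83238776, at chr2:120111233-120111292 and at chrX:34542435-34542494 in the order given, and the shared run is 6 bases long.

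Values are log2 processed signal minus the array's 75th percentile, and differences are subfertile minus fertile. A probe was tested where it was well above background on at least 5 of the 11 arrays, and a gene is represented by its brightest tested probe. Adjusted p-values are from limma over all 31876 tested probes with Benjamini-Hochberg adjustment, with a threshold of 0.05. Median processed signal per array was 54.3 to 92.7 in subfertile cows and 161 to 452 in fertile cows, and 64.5% to 74.2% of probes were well above background in subfertile cows, against 72.0% to 77.4% in fertile cows. The subfertile arrays share 1 scan day and 3 slides that hold no fertile array, so scan day and slide cannot be told apart from fertility group. For 1 fertile cow (cow 6) slide and scan day are unknown here. In biopsies, fewer cells of a type and less RNA per cell cannot be told apart.

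Of the 34 collagen genes, 29 had a tested probe; COL17A1, COL21A1, COL24A1, COL25A1 and COL6A6 had none. In subfertile cows 5 of the 29 rose and 5 fell, while 14.2% of all 18444 tested genes rose and 7.89% fell, 22.1% in all. The median difference was -0.11 over the collagen genes and 0.06 over all tested genes. The groups did not overlap for 5 of the 29 genes, against 13.6% of all tested genes. Over probes, 9 of 83 rose and 12 fell, against 14.8% and 7.38% of all tested probes (22.2% in either direction), and 6 of the 83 did not overlap between groups, against 13.5%. Every tested collagen probe was well above background on at least 1 array of each group. With scan day as a random block, 1 collagen gene rose (COL8A2, difference 1.32) and 0 fell by limma, so that each other call in the classes below was lost under that block. Fertile cow 6, of unknown day, was given a block of its own. As the subfertile arrays share 1 scan day, the block cannot tell scan day from group, also for COL8A2.

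**Figure D1:**
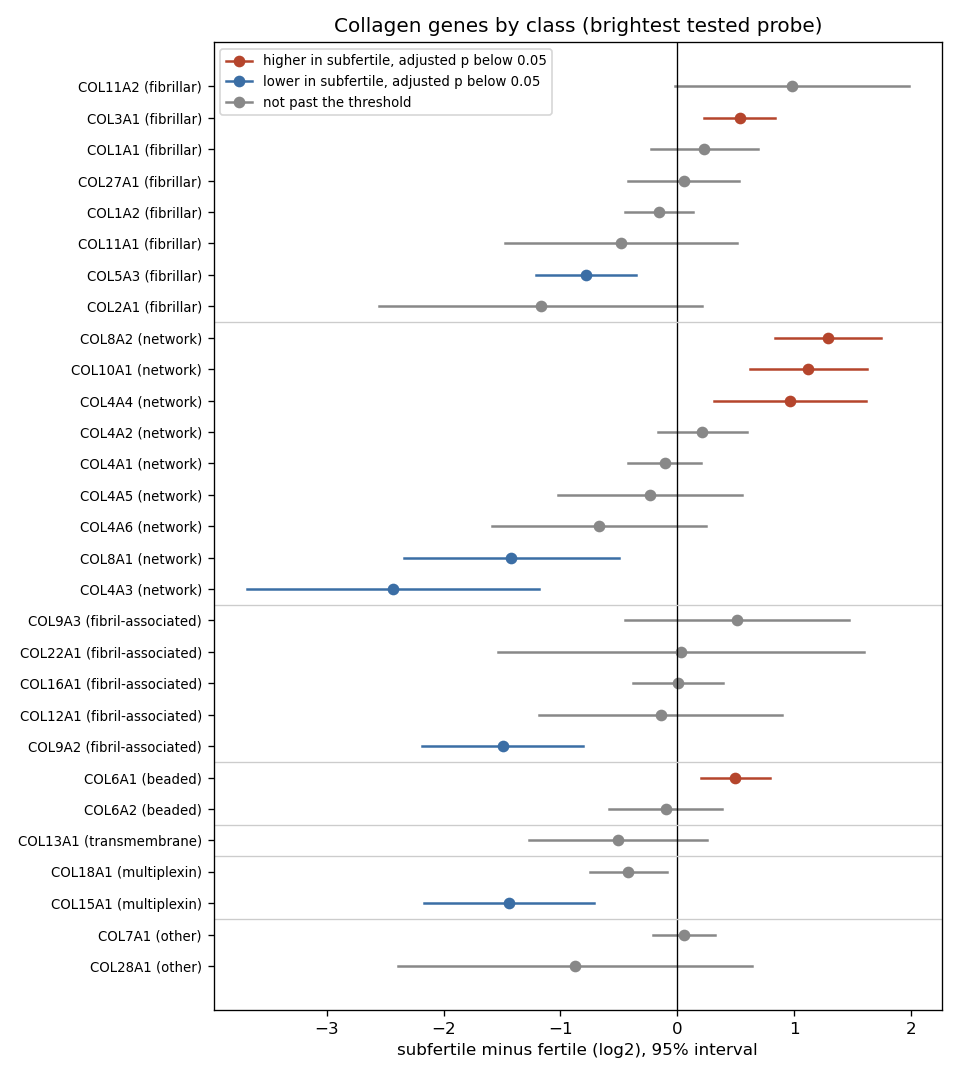
Difference between subfertile and fertile cows (x axis, log2) with its 95% interval for the brightest tested probe of each of 29 collagen genes, in rows grouped by class. COL8A2 at 1.29 and COL4A3 at -2.43 are the ends of the range; COL3A1 and COL6A1 are higher as plotted and change sign under quantile normalization.

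Among the fibrillar collagens, which form the tensile fibres, 8 of 9 genes were tested, 1 rose and 1 fell, and the median difference was -0.05. COL3A1, the chain of type III collagen, gave 6.42, 7.10, 7.02, 6.71 and 7.03 in subfertile cows and 6.08, 6.26, 6.31, 6.47, 6.31 and 6.51 in fertile cows. Only the lowest subfertile cow fell within the fertile range. Its brightest probe rose by 0.53 (SE 0.14, adjusted p = 0.020, 1.45-fold); under quantile normalization the difference was -0.24, past no threshold. The call was also lost with median centring (0.44, adjusted p = 0.064) and without subfertile cow 2 or cow 5 (highest adjusted p 0.056).

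The type I chains, the main components of the stromal fibre, did not pass the test on their brightest probes. COL1A1 gave 4.98, 5.69, 5.20 and 5.27 in 4 subfertile cows, the spot of the fifth being an outlier that was left out of the fit, and 4.38, 5.18, 4.96, 5.30, 5.15 and 5.38 in fertile cows. Its difference was 0.23, with a 95% interval of -0.23 to 0.69 (adjusted p = 0.46), and was -0.06 under quantile normalization. COL1A2 gave 5.61, 6.12, 6.09, 5.55 and 6.06 in subfertile cows, against 5.97, 6.06, 5.97, 6.17, 5.90 and 6.17 in fertile cows. Subfertile cows 1 and 4 were below every fertile cow, and the difference was -0.16 (interval -0.44 to 0.13, adjusted p = 0.42). Under quantile normalization COL1A2 passed the test, with a difference of -0.71 (adjusted p = 0.0031).

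COL5A3, a chain of the type V collagen that takes part in regulating fibre assembly, fell on its brightest probe. The values were -1.51, -1.92, -1.86, -1.91 and -2.34 in subfertile cows and -1.07, -0.86, -1.28, -0.92, -0.83 and -1.81 in fertile cows. The groups overlapped through fertile cow 6, and the difference was -0.78 (SE 0.19, adjusted p = 0.016). With normexp background correction it was -0.47, and the mean over the gene's 4 tested probes gave -0.03 (adjusted p = 0.91). COL2A1, the chain of cartilage collagen II, ranged from -2.33 to 0.00 in subfertile cows and from -2.43 to 1.04 in fertile cows, with a difference of -1.17 (SE 0.63, adjusted p = 0.20). The other tested fibrillar genes, COL11A1, COL11A2 and COL27A1, had differences of -0.48, 0.98 and 0.05, with adjusted p of 0.47, 0.14 and 0.88.

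Among the network collagens all 9 genes were tested, 3 rose, 2 fell and the median difference was -0.11. The ubiquitous basement membrane pair was not past the threshold. COL4A1 gave 2.68, 3.20, 2.98, 2.74 and 3.15 in subfertile cows and 3.19, 3.13, 2.92, 3.30, 3.13 and 2.68 in fertile cows, a difference of -0.11 (interval -0.42 to 0.20), and -0.23 under quantile normalization. COL4A2 gave 0.76, 0.98, 0.60, 0.49 and 1.02 in subfertile cows and 0.48, 0.28, 0.26, 1.18, 0.52 and 0.64 in fertile cows, a difference of 0.21 (interval -0.17 to 0.59), and 0.13 with normexp background correction.

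COL4A3 and COL4A4, which together with COL4A5 form the trimer of specialised basement membranes, differed in opposite directions. COL4A3 gave -5.41, -5.27, -2.37, -2.95 and -4.72 in subfertile cows and -0.51, -1.82, -2.36, -1.34, -2.42 and -1.81 in fertile cows. The subfertile cows spread widely, and cow 3 lay within the fertile range. The gene fell by 2.43 on the log2 scale (SE 0.57, adjusted p = 0.013, 5.40-fold), and a second tested probe fell by 2.55 (adjusted p = 0.019). With normexp background correction the difference was -1.07 (adjusted p = 0.013).

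COL4A4 gave 1.61, 1.05, 1.38, 0.63 and 0.93 in subfertile cows and -0.18, 1.03, -0.26, -0.40, 0.92 and -0.18 in fertile cows. Fertile cows 2 and 5 lay within the subfertile range. The difference was 0.97 (SE 0.30, adjusted p = 0.038), the call was lost in 8 of the 11 fits that left out a cow (highest adjusted p 0.084), and a probe described as COL4A4 but listed under a transcript accession had a difference of -1.14 (adjusted p = 0.087). COL4A5 had a difference of -0.23 (adjusted p = 0.67) and COL4A6 of -0.67 (adjusted p = 0.27). The COL4A6 probe printed above, which is not the brightest of its gene, fell by 1.82 on the log2 scale (SE 0.56, adjusted p = 0.039) and was well above background in 2 of 5 subfertile cows, while the printed COL4A2 probe had a difference of 0.02.

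Both chains of type VIII collagen, a short-chain lattice collagen of vessels and other tissues, passed the test in opposite directions. COL8A2 gave -4.53, -4.29, -5.04, -5.34 and -4.48 in subfertile cows and -6.13, -5.64, -5.72, -6.33, -6.02 and -6.30 in fertile cows, with no overlap. It rose by 1.29 (SE 0.21, adjusted p = 0.0022, 2.44-fold). The probe was well above background in 5 of 5 subfertile cows and 4 of 6 fertile cows. Most of the 16 collagen probes well above background on no array also had a higher mean in subfertile cows. A COL4A6 probe averaged -7.88 in subfertile cows and -8.81 in fertile cows without overlap. In the same order, a COL11A1 probe averaged -7.50 and -8.57 and a COL21A1 probe -7.22 and -8.77, both without overlap. Another COL21A1 probe had a smaller shift, with -6.82 and -7.05 and overlap. The part of background in the COL8A2 difference was not tested. COL8A1 gave -3.43, -4.09, -4.22, -2.69 and -2.60 in subfertile cows and -1.49, -1.54, -0.99, -2.17, -3.10 and -2.64 in fertile cows.

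Fertile cows 5 and 6 lay within the subfertile range of COL8A1. The difference was -1.42 (SE 0.42, adjusted p = 0.032), all 4 tested probes were lower (-1.59 to -1.29, 2 past the threshold), the call was lost in 6 of the 11 fits that left out a cow (highest adjusted p 0.082), and with normexp background correction the difference was -0.50 (adjusted p = 0.17). The mean over its probes missed the threshold too (adjusted p = 0.060). COL10A1, a network collagen known from hypertrophic cartilage, gave -4.00, -4.03, -4.03, -4.22 and -3.65 in subfertile cows and -5.92, -4.49, -5.42, -5.14, -4.71 and -4.96 in fertile cows. The groups did not overlap and COL10A1 rose by 1.12 (SE 0.23, adjusted p = 0.0067).

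Among the fibril-associated collagens 5 of 6 genes were tested, 0 rose by limma and 1 fell, and the median difference was 0.01. COL9A2, a chain of collagen IX that coats cartilage fibres, gave -4.50, -4.59, -5.48, -5.77 and -5.38 in subfertile cows and -2.75, -4.37, -3.19, -3.85, -3.99 and -3.76 in fertile cows. Every subfertile cow was below every fertile cow, and the difference was -1.49 (SE 0.31, adjusted p = 0.0077). The probe was well above background in 3 of 5 subfertile cows, and with normexp background correction the difference was 0.10 (adjusted p = 0.74). COL12A1, COL16A1, COL22A1 and COL9A3 had differences of -0.14, 0.01, 0.03 and 0.51, none past the threshold.

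Among the beaded collagens, 2 of 3 genes were tested. COL6A1 gave 6.74, 6.70, 6.72, 6.86 and 6.71 in subfertile cows and 6.40, 5.86, 6.42, 6.61, 6.24 and 5.99 in fertile cows, without overlap. It rose by 0.49 (SE 0.14, adjusted p = 0.024), its other probes had differences of 0.41 and 0.58, and under quantile normalization the brightest probe's difference was -0.22, past no threshold. The call was also lost with median centring (0.40, adjusted p = 0.056) and with the mean over its probes (adjusted p = 0.070). COL6A2, its partner chain, gave 0.73, 0.37, -0.18, 0.67 and 0.41 in subfertile cows and 0.27, 0.28, 0.56, 1.31, 0.33 and 0.24 in fertile cows, a difference of -0.10 (interval -0.58 to 0.38). A probe described as COL6A2 under a transcript name was higher by 0.65 (adjusted p = 0.023). COL6A3 and COL14A1 had no probe with such a symbol.

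The multiplexins COL15A1 and COL18A1, basement membrane collagens whose ends release antiangiogenic fragments, both had negative differences. COL15A1 gave -2.70, -2.13, -2.05, -1.61 and -2.81 in subfertile cows and 0.00, 0.03, -0.98, -1.50, -0.94 and -1.53 in fertile cows, without overlap. It fell by 1.44 on the log2 scale (SE 0.33, adjusted p = 0.012). With slide as a random block the call was lost (-1.39, limma adjusted p = 0.055). The gene's second tested probe had a difference of -0.55 (adjusted p = 0.083), with overlap, and was well above background in 2 of 5 subfertile cows. COL18A1 gave 5.55, 5.36, 5.44, 5.52 and 5.42 in subfertile cows and 5.84, 5.47, 6.23, 6.12, 5.51 and 6.08 in fertile cows. Its brightest probe had a difference of -0.42 (adjusted p = 0.067), and 2 of its 6 tested probes fell. The brightest probe passed with normexp background correction (-0.49, adjusted p = 0.012), quantile normalization (-0.86, adjusted p = 0.0050) and median centring (-0.51, adjusted p = 0.044), and without fertile cow 2 or cow 5 (adjusted p = 0.030 and 0.041). Over the fits that left out a cow, its highest adjusted p was 0.14. The mean over the 6 COL18A1 probes had a difference of -0.245 and did not pass (adjusted p = 0.22). The transmembrane COL13A1 had a difference of -0.51 (adjusted p = 0.31); of the remaining genes, COL7A1, the anchoring fibril chain, had a difference of 0.06 and COL28A1 of -0.87.

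**Figure D2:**
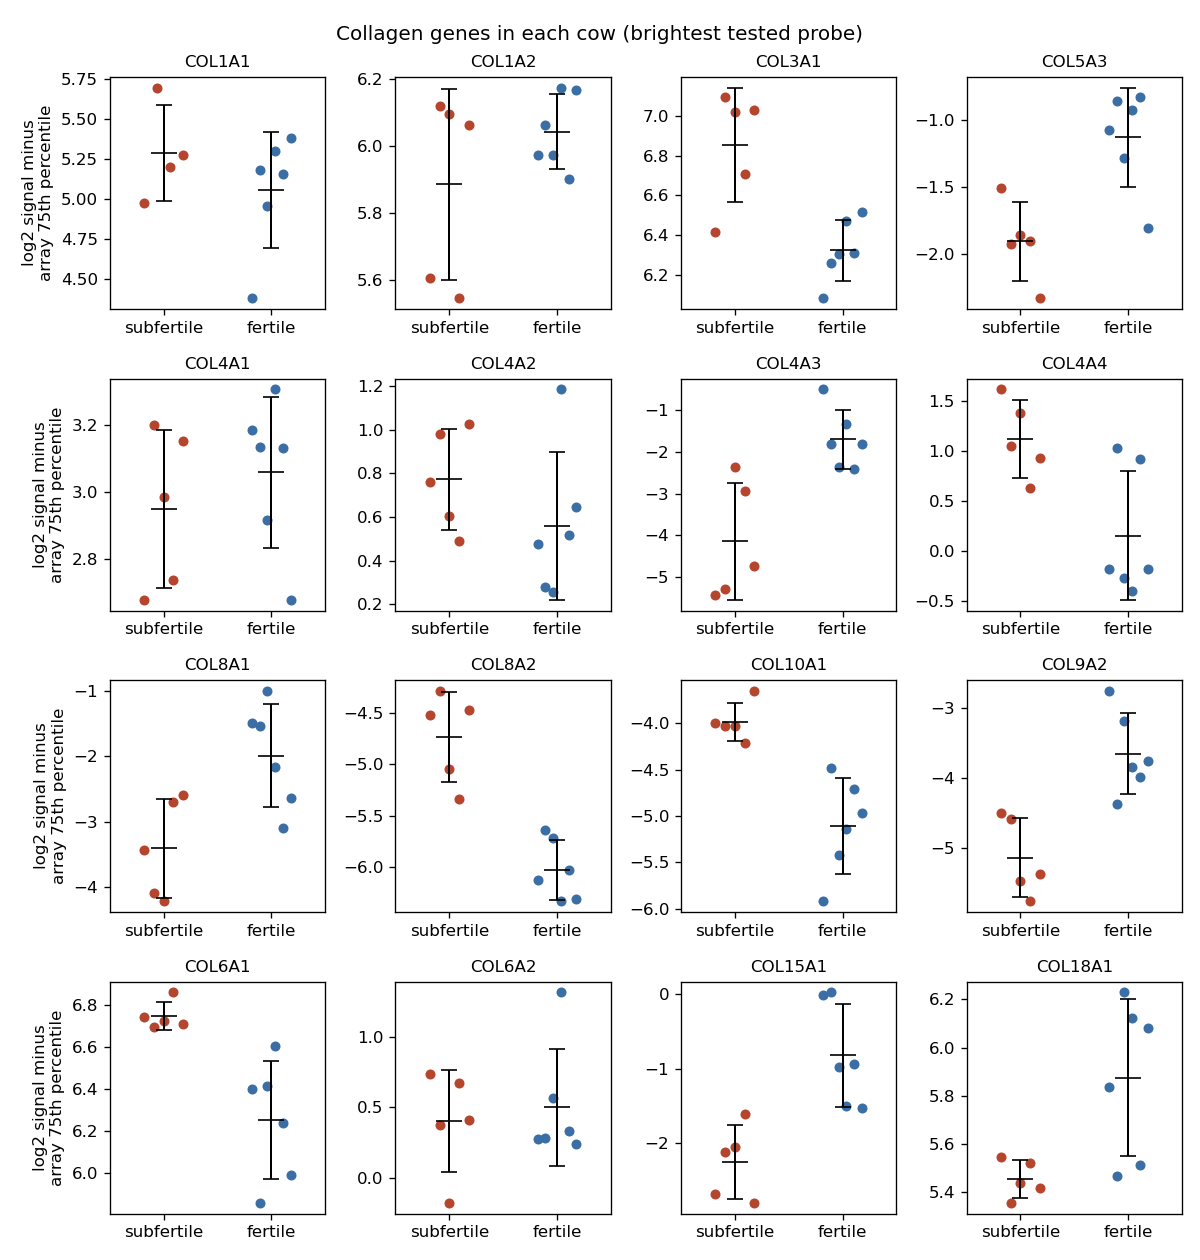
Log2 signal minus the array's 75th percentile (y axis, own range in each panel) for 16 collagen genes in each subfertile and fertile cow; bars show the mean and SD. COL8A2, COL10A1, COL9A2, COL6A1 and COL15A1 do not overlap between groups; COL1A1 has 4 subfertile points, and the order of the groups for COL3A1 and COL6A1 turns under quantile normalization.

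Probes of the same gene did not always move together. Of 21 genes with at least 2 tested probes, all probes had the same sign in 9, and COL3A1 and COL5A3 had probes past the threshold in both directions. The median correlation of the other probes with the brightest one, over deviations from the group means, had a median of 0.72 over the 21 genes and ranged over single probes from -0.41 to 0.999. Probes of one array share its labelling and scan, and no p is given. Some probes of a gene also overlap in genomic position, so their agreement is not independent. The 0.999 belongs to such a pair in COL2A1, and the 2 tested COL7A1 probes overlap too.

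COL3A1 showed this most fully, with 10 tested probes. The second brightest, 0.84 kb from the 3′-most probe, gave 6.56, 6.99, 6.85, 6.73 and 6.95 in subfertile cows and 5.99, 6.09, 6.14, 6.16, 6.15 and 6.19 in fertile cows, and rose by 0.70 (SE 0.10, adjusted p = 0.0013). A probe at 0.60 kb gave 3.90, 4.51, 4.46, 4.11 and 4.48 in subfertile cows and 4.74, 4.82, 4.75, 4.66, 4.74 and 4.45 in fertile cows, and fell by 0.40 on the log2 scale (adjusted p = 0.049). Of the 10 probes 2 rose, 2 fell and 6 passed no threshold, and the mean over all tested probes of the gene had a difference of 0.10 (adjusted p = 0.56).

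**Figure D3:**
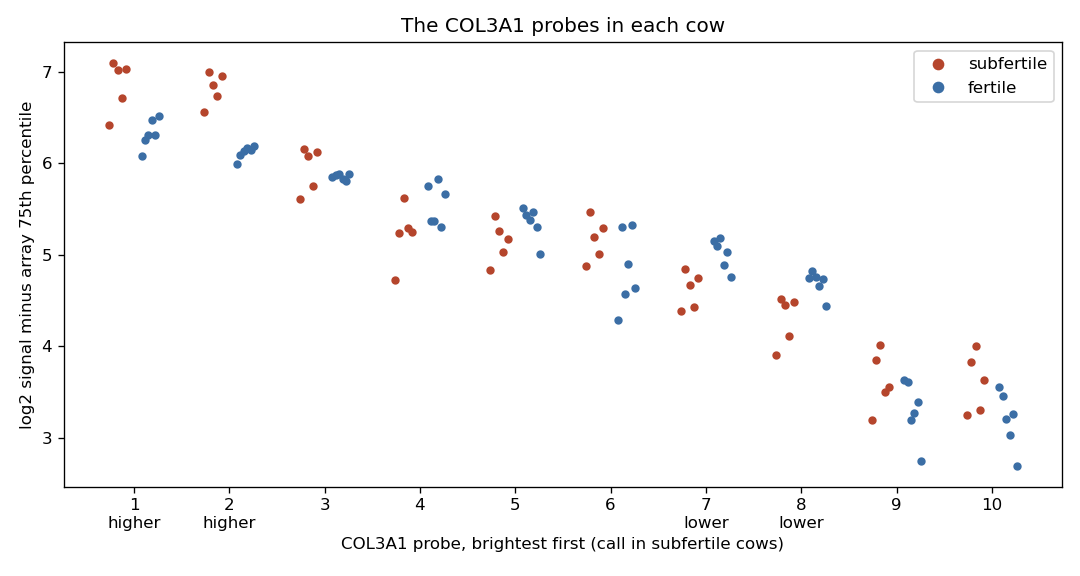
Log2 signal minus the array's 75th percentile (y axis) at each of the 10 COL3A1 probes, brightest first, with subfertile cows to the left of fertile cows at each probe. The 2 brightest probes are higher in subfertile cows and 2 dimmer ones lower.

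In COL1A2 the printed helix probe gave -2.35, -1.47, -1.19, -2.23 and -1.46 in subfertile cows and -2.65, -1.99, -2.69, -2.50, -2.22 and -2.72 in fertile cows, and rose by 0.72 (SE 0.23, adjusted p = 0.043). Within each array, this probe minus the 3′-most COL1A2 probe differed between groups by 0.62 (exact two-sided permutation test over 462 splits, p = 0.0043, adjusted p = 0.045 over 21 genes). That test was added after the values were seen; it did not pass for COL1A1, whose helix probe minus its 3′-most probe differed by 0.06 (4 subfertile and 6 fertile cows, exact permutation p = 0.80, adjusted p = 0.85). The 1 COL1A1 probe that rose, by 0.58 (adjusted p = 0.040), was not counted as helix. The test also passed for COL4A5, in the opposite direction (-0.62, exact permutation p = 0.0022, the smallest the design allows, adjusted p = 0.045).

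Over all collagen genes, 9 tested probes lay in the helix by the repeat of glycine codons, with at most 1 missing. Of these, 8 had a positive difference, 3 rose (in COL1A2, COL5A3 and COL8A2) and 0 fell by limma, with a median difference of 0.40. Of the other 74 tested probes 31 had a positive difference, 6 rose and 12 fell, with a median of -0.10. Over all 31876 tested probes of the array, 17983 had a positive difference, 14.8% rose and 7.38% fell. Under quantile normalization the medians were 0.33 and -0.22, and under median centring 0.31 and -0.19. With normexp background correction they were 0.63 and 0.06, and 39 of the 74 other probes had a positive difference, 16 rose and 10 fell. The split into helix and other probes was made after the values were seen and is given without a test. The tested helix probes also lie at least 1.43 kb from the 3′-most probe of their gene. Their mean levels over the arrays were negative, down to -5.44 for COL8A2, except for the COL3A1 probe (3.38). The parts of distance and of level were not tested.

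**Figure D4:**
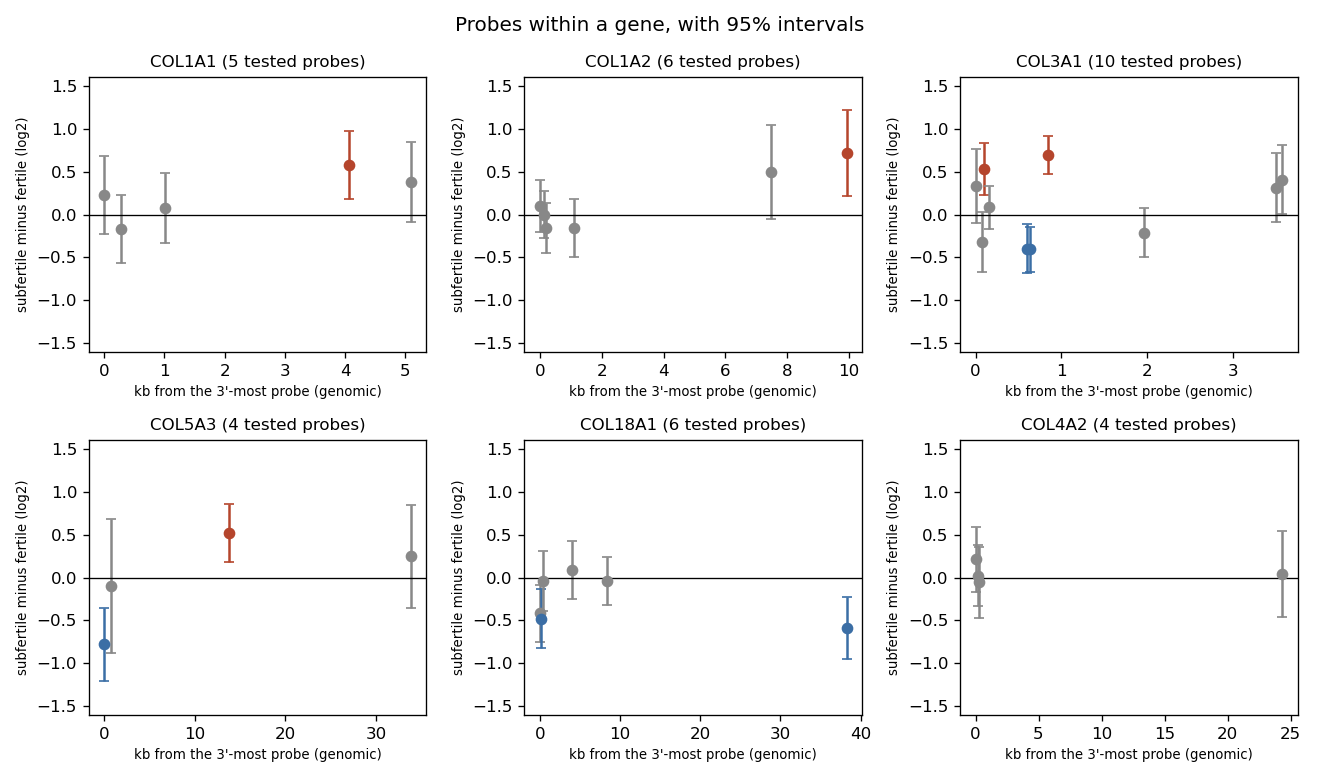
Difference between subfertile and fertile cows (y axis, log2, with 95% intervals) against genomic distance in kb from the 3′-most probe, for the tested probes of 6 collagen genes. Coloured points passed the threshold; COL3A1 and COL5A3 hold probes that passed in both directions.

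Across cows, 7 pairs of chains were correlated on deviations from the group means, with 100000 permutations within groups. COL4A5 and COL4A6, which pair in one type IV trimer, gave Pearson r = 0.91 (permutation p = 5e-05, adjusted p = 0.00035) and Spearman rho = 0.94 (permutation p = 5e-05, adjusted p = 0.00035, n = 11), and r = 0.86 without the 2 cows farthest from the median. That value rests on the brightest COL4A6 probe, which itself gave r = -0.20 with the gene's other tested probe. COL1A1 and COL3A1 gave r = 0.76 (permutation p = 0.0035, adjusted p = 0.012) and rho = 0.78 (permutation p = 0.010, adjusted p = 0.036, n = 10), and r = 0.74 without 2 cows. No scan day held more than 5 of the cows, too few for values within a day. The other 5 pairs did not pass the correction. COL4A3 and COL4A4 gave r = -0.29 (permutation p = 0.32, adjusted p = 0.38) and rho = -0.42 (permutation p = 0.18, adjusted p = 0.21).

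Genes that make, bind and degrade collagen were taken from 3 lists. Of the enzymes and chaperones of synthesis and assembly, 25 of 29 were tested, 2 rose and 3 fell. Over all tested genes 14.2% rose and 7.89% fell, 22.1% in all. PCOLCE2, an enhancer of procollagen C-proteinase, gave -0.98, -0.94, 0.42, 0.81 and -0.54 in subfertile cows and 1.82, 1.18, 1.78, 1.91, 1.16 and 0.97 in fertile cows. The groups did not overlap and it fell by 1.71 on the log2 scale (SE 0.34, adjusted p = 0.0058). ADAMTS14, a procollagen N-proteinase, rose by 1.45 (SE 0.36, adjusted p = 0.017), without overlap, and was well above background in 5 of 5 subfertile cows and 3 of 6 fertile cows. P4HB, the beta subunit of prolyl 4-hydroxylase, rose by 0.41 (adjusted p = 0.025), with a difference of -0.02 under quantile normalization and of 0.31 with median centring (adjusted p = 0.094). Of its 4 tested probes 1 rose, and the mean over them did not pass (0.26, adjusted p = 0.22). P3H1, a prolyl 3-hydroxylase, fell by 0.40 (adjusted p = 0.034). With scan day as a random block, 0 genes of the 3 lists rose or fell by limma. Leaving out a cow lost the call in 4 of 11 fits for P4HB and 8 of 11 for P3H1.

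All 10 collagen receptors were tested, 1 was called higher and 1 lower. For these and for the turnover genes below, the shares over all tested genes were 14.2% higher and 7.89% lower. LAIR1, an inhibitory receptor of leukocytes, rose by 0.52 (SE 0.13, adjusted p = 0.015); it gave 0.998 with normexp background correction and 0.38 under quantile normalization, where the call was lost (adjusted p = 0.059). The gene called lower was ITGA11, a collagen-binding integrin subunit whose probe was not well above background in any subfertile cow and was so in 5 of 6 fertile cows, so it was tested only through the fertile cows. Its measured means were -7.07 in subfertile cows and -6.03 in fertile cows (adjusted p = 0.010). The lowest level that counts as well above background on the subfertile arrays averaged -5.79, above the fertile mean, so no fold is given, and with normexp the difference passed in the opposite direction (1.23, adjusted p = 6.3e-05). ITGA2, another such subunit, was well above background in 1 of 5 subfertile cows and 6 of 6 fertile cows. Its difference was -0.59 (adjusted p = 0.093), and 0.83 with normexp, past the threshold in the opposite direction (adjusted p = 0.00032). MRC2, an endocytic collagen receptor, had a difference of -0.38 (adjusted p = 0.096). It passed with normexp (-0.42, adjusted p = 0.040), quantile normalization (-0.53, adjusted p = 0.042) and median centring (-0.47, adjusted p = 0.033), and without fertile cow 6 (-0.52, adjusted p = 0.0039). These values are of the brightest MRC2 probe. The 3 tested MRC2 probes ranged from -0.38 to 0.43, and the mean over them had a difference of 0.02 (adjusted p = 0.95). Of 11 turnover genes 10 were tested, 0 rose by limma and 2 fell. MMP2, a gelatinase, gave 3.10, 3.65, 3.73, 3.42 and 3.57 in subfertile cows and 3.98, 4.17, 4.04, 4.37, 4.31 and 4.04 in fertile cows. The groups did not overlap and it fell by 0.66 (SE 0.13, adjusted p = 0.0060), although 1 of its 5 tested probes passed and the mean over them did not (adjusted p = 0.073). MMP19 fell by 0.95 (SE 0.24, adjusted p = 0.017), and the mean over its probes did not pass (adjusted p = 0.063). The inhibitors TIMP2 and TIMP3 had differences of 0.40 and -0.61 (adjusted p = 0.079 and 0.12), and both passed without fertile cow 6 (adjusted p = 0.026 and 0.025). TIMP2 also passed with the mean over its probes (0.51, adjusted p = 0.039) and was -0.29 under quantile normalization, and TIMP3 passed with normexp (-0.66, adjusted p = 0.037) and without subfertile cow 4 (adjusted p = 0.045).

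**Figure D5:**
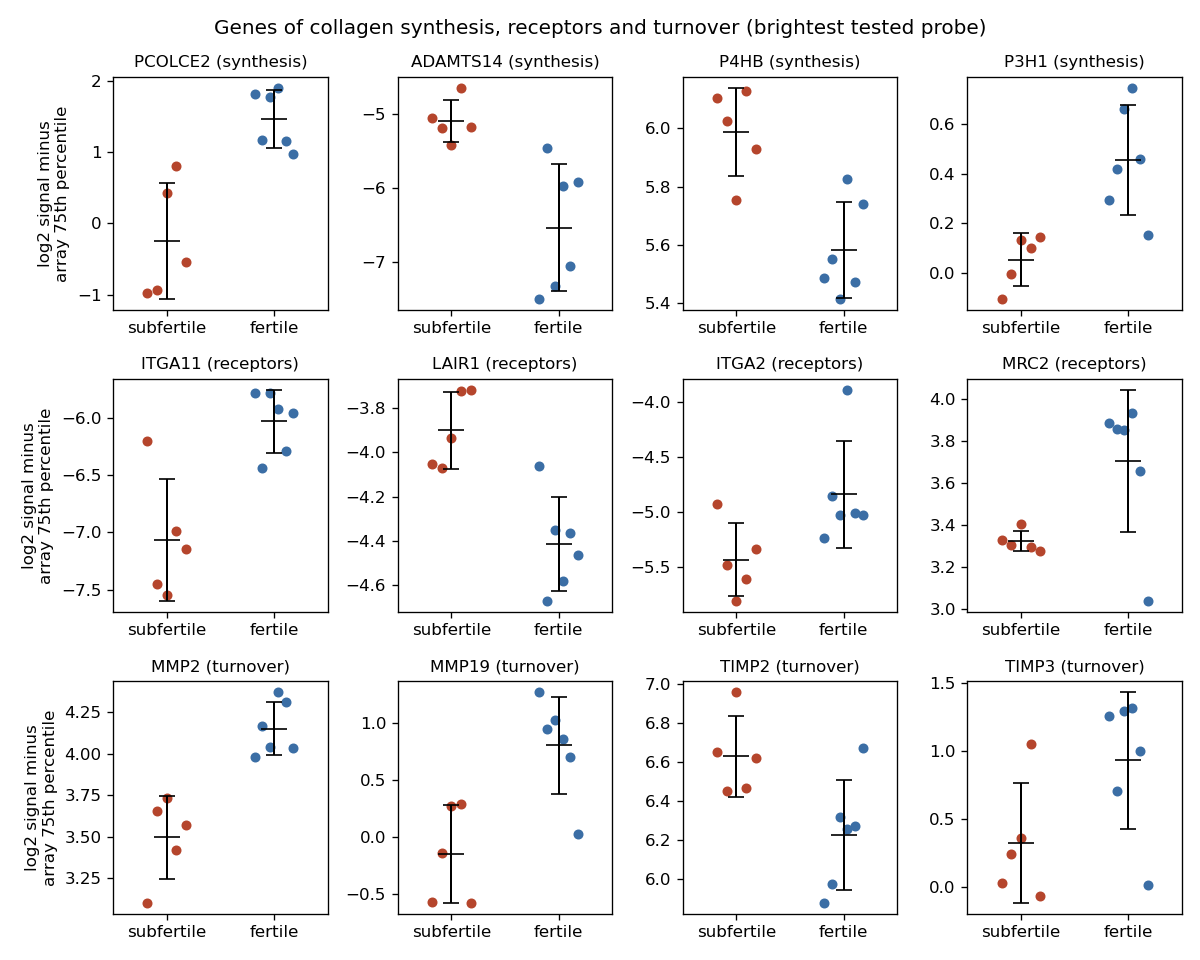
Log2 signal minus the array's 75th percentile (y axis, own range in each panel) in each cow for the 4 genes with the smallest p in each of 3 lists, with mean and SD. PCOLCE2, ADAMTS14, P3H1 and MMP2 do not overlap between groups; the direction of P4HB turns under quantile normalization, and those of ITGA11 and ITGA2 under normexp correction.

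Of 5 lists of markers for cell types that a biopsy can hold, the mean level of the epithelial list did not overlap between groups and those of the other 4 lists did; 14.2% of all tested genes rose and 7.89% fell. Of 8 epithelial markers 6 rose and 0 fell by limma, and their mean centred level was 0.17 to 0.53 in subfertile cows and -0.83 to -0.06 in fertile cows. Of 9 stromal markers 1 rose and 2 fell, with a mean centred level of -0.48 to 0.05 in subfertile cows and -0.08 to 0.35 in fertile cows. Of 7 smooth muscle markers 2 rose (-0.13 to 1.97 in subfertile cows, where 1.97 is cow 1 and the other 4 reach at most 0.24, and -1.09 to 0.59 in fertile cows), of 6 endothelial markers 2 rose (-0.13 to 0.59 in subfertile cows, -0.42 to 0.10 in fertile cows), and of 7 leukocyte markers 1 rose and 1 fell (-0.35 to 0.28 in subfertile cows, -0.35 to 0.30 in fertile cows). Every tested marker of these lists was well above background on at least 6 arrays. Their part in the collagen differences was not tested.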

How the data were processed

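Endometrial RNA of 11 cows was hybridised to 1-colour Agilent arrays. The authors deposited scanner output whose processed signal is a linear intensity; the submitters' processing notes name Feature Extraction of Agilent, version 10.5.1.1. The deposited value table is on a log2 scale. Its centring and scale are unstated, and its column medians run from -0.08 to 0.09. It was compared with the scanner files through each cow's differences from fertile cow 2, after removal of the median offset. These differences matched within 0.01 for all probes except in fertile cow 1, where 17.0% matched. For fertile cow 2 itself the match was fixed in advance. The deposited value table was used only as an alternative. For fertile cow 6 gene names were out of register, so names were taken by probe from the other arrays.

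Log2 processed signal minus each array's 75th percentile was fitted with limma 3.58.1 (R 4.3.3) over probes well above background on at least 5 arrays; control spots and outlier spots were left out. The script was tested on simulated data with known changes. It recovered 66% of 2-fold and 97% of 4-fold changes, and 4 of its 167 calls were false. Groups come from sample titles, and the number of arrays limits the precision. The members, the gene lists and the tests were chosen with earlier results of these data known. Named genes were the collagen genes past the threshold, a fixed set of 11 collagens of which COL6A3 and COL14A1 had no member probe, and in each list of synthesis, receptor and turnover genes the 4 with the smallest p. Alternatives changed the background correction, normalization, probe filter, batch blocks, replicate block, variance model, threshold, probe choice and the cows included. Tables and figures used Python 3.11.15.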

Additional observations from a re-analysis of the deposited data

Results flagged for a closer look

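Of 56 groups of values examined (16 collagen and 12 other genes in 2 groups each), 4 held a cow that stood apart by Dixon's test at 95%, where chance gives about 1 in 20 groups. COL6A1 was 6.86 in subfertile cow 4, with the next value at 6.74 in a group that spans little. COL6A2 was 1.31 in fertile cow 4, with the next value at 0.56. ITGA2 was -3.89 in fertile cow 4, with the next value at -4.85. MRC2 was 3.04 in fertile cow 6, with the next value at 3.66.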

How the results depend on the processing

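In the main analysis 5 collagen genes rose and 5 fell, 9 collagen probes rose and 12 fell, and 3 accessory genes rose and 6 fell. The cause of the shifts below was not tested. With normexp correction 22 probes and 9 accessory genes rose; with quantile normalization 3 genes, 4 probes and 1 accessory gene rose and 19 probes fell; with median centring 3 genes and 4 probes rose; with no filter 18 probes rose; with the mean over probes 3 genes rose. With slide as a random block 2 genes, 3 probes and 0 accessory genes rose, and 1 gene, 1 probe and 3 accessory genes fell; with scan day 1 gene, 2 probes and 0 accessory genes rose, and 0 genes, 0 probes and 0 accessory genes fell. Leaving out each cow, 3 to 5 genes rose and 4 to 7 fell, 4 to 9 probes rose and 5 to 14 fell, and 2 to 4 accessory genes rose and 4 to 10 fell. Same-numbered cows did not deviate together (r from -0.21 to 0.22 over 5 numbers), and the sample titles name no pairing beyond the number. With the replicate block 3 genes and 4 probes rose and 7 probes fell. The differences that changed sign were COL9A2 (0.10), ITGA11 (1.23) and ITGA2 (0.83) with normexp, and COL3A1 (-0.24), COL6A1 (-0.22) and P4HB (-0.022) with quantile normalization. A further 8 sign changes concerned values past no threshold. The median difference of all tested probes was 0.07 in the main analysis, 0.33 with normexp, -0.01 with quantile normalization and -0.02 with median centring. Signals near background limit COL9A2, COL8A2, ADAMTS14, ITGA11, ITGA2 and the COL4A6 probe that fell.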

Other observations

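Some probes are described as collagens in the files but carry a transcript or accession name, so they are not among the members; they were picked from the description after values were seen. The probe described as procollagen alpha 2(V), the partner chain of type V collagen, ranged from 0.10 to 0.65 in subfertile cows and from 1.32 to 1.89 in fertile cows, a difference of -1.19 (SE 0.14, limma adjusted p = 0.00044) with no overlap. Of 4 probes described as collagen VI alpha 3, the microfilament chain without a member probe, 3 were tested, with differences of -0.07, 0.36 and 0.42, none past the threshold. The probe described as like collagen V alpha 1 had a difference of -0.04.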
